A study of Mus musculus with 2 samples.

Results

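The genes described here are the 5 subunits of the transcription factor NF-kB (Nfkb1, Nfkb2, Rel, Rela and Relb) and 5 of its feedback inhibitors (Nfkbia, Nfkbie, Nfkbiz, Tnfaip3 and Birc3). They were taken by gene symbol, and all 10 of these 10 were found among the 31053 genes of the deposited matrix. Each had UMIs in both libraries.

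NF-kB is a family of dimeric transcription factors that inhibitor proteins hold in the cytoplasm of resting cells. In the canonical pathway, receptors for cytokines, microbial products and antigen release dimers that contain RelA or c-Rel together with p50, the product of Nfkb1. In the non-canonical pathway, receptors such as CD40 release dimers of RelB with p52, the product of Nfkb2. Released dimers raise the transcription of several of their own subunits and of inhibitors that end the response, so that the mRNAs of both groups are read as a trace of NF-kB signalling. Dendritic cells are known for a high level of RelB after they mature.

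MTC-Q1 is a cell line of mouse oral cancer, and its tumours were grown under the skin of C57BL/6 mice. One group of tumours was made from MTC-Q1 miR-21 KO cells, which lack a microRNA, and the other from MTC-Q1 WT cells, with 1 library per group. Tumours of both groups had grown for 2 weeks and were taken 72 h after cisplatin, a DNA-crosslinking drug, at 5 mg/kg. There was no group without cisplatin, dead cells were removed, and leukocytes were enriched with beads against CD45. The labels give no number of mice or of tumours for a library, and do not say how many clones the knockout cells came from. Transcript 3′ ends were counted in single cells as unique molecular identifiers (UMIs), and a level is given per 1000000 UMIs of a class (CPM).

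The matrix marks each barcode with a library number, and no source used here ties a number to a group. They stay unlabelled below, as library 1 and library 2, so that no ratio between them can be read as miR-21 KO over WT. Library 1 held 5320 barcodes with a median of 7169 UMIs, and library 2 held 7194 barcodes with a median of 15247.5 UMIs. The same barcode sequence occurred in both libraries 8 times. Library 1 also had more mitochondrial UMIs (median 3.97% against 2.09%). With 1 library per group no difference could be tested; intervals are at the 95% level and hold the error of counting alone.

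Cells were sorted into 18 classes by their own marker UMIs, with no NF-kB gene among the markers, and a class is called X-like after the markers of its gate. Of the cells kept, 4391 in library 1 and 5502 in library 2 fell into a class, 405 and 535 passed the gates of more than 1 lineage and were left out, and 181 and 698 passed none. Levels were ordered over the 14 leukocyte classes with at least 100000 UMIs in both libraries. B-like and naive CD4 T-like cells reached that depth in library 1 alone, and T-like cells with NK receptors in library 2 alone. Fibroblast-like cells, which carried 5.21 and 10.4 CPM of the CD45 gene Ptprc, were left out as no leukocytes. The class that matters most here is small: 10 cells of library 1 and 51 of library 2 were mature DC-like, with summed levels of 7285 and 5812 CPM for the 9 markers of that gate and 16.8 and 21.8 CPM for the 5 T-cell markers. On that gate 3 and 21 cells sat at the minimum of 5 markers and 19 and 90 cells lay above it. Another 4 and 26 cells lay 1 marker under it. These counts are from before cells of more than 1 lineage were removed. Most cells that passed this gate also passed another and were left out of the class.

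Several members carry matches to a kB motif, the kind of DNA site that NF-kB dimers bind, just before their transcription start. The pattern searched for was GGG, then 3 bases of any kind, then TTCC. It was searched on both strands of the 250 bases before the most upstream RefSeq start in build GRCm38.p6. It was found in 5 of the 7 members with an entry (71.4%), and in 1250 of the 27025 genes with an entry (4.63%). Rela and Birc3 had an entry and no match, which says only that these letters are not in that window; Nfkb1, Relb and Nfkbiz had no entry. The matches are shown because subunit and inhibitor genes share them. They are printed on the strand of the gene with up to 10 bases on each side, with the match in capitals, and a match is a description of the sequence and no evidence of binding.
Nfkb2, first match, chr19:46304689-46304718, plus strand: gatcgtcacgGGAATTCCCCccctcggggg
Nfkb2, second match, chr19:46304716-46304736, plus strand: ggggccgaaaGGGGCTTTCCc
Rel, chr11:23771041-23771070, minus strand: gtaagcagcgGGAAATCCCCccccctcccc
Nfkbia, chr12:55492657-55492686, minus strand: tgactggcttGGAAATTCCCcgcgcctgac
Nfkbie, chr17:45555584-45555613, plus strand: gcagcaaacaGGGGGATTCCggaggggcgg
Tnfaip3, chr10:19015411-19015432, minus strand: aatttccatcGGAAATCCCCct
The capitals of the first Nfkb2 match and those of Rel, Nfkbia and Tnfaip3 match the pattern on the strand opposite to the gene, and the others match it on the strand of the gene. Rel and Tnfaip3 hold the same 10 bases. The first match of Nfkb2 ended 29 bases and that of Nfkbie 97 bases before the start, and no matches overlapped. In the GENCODE M21 annotation Nfkb2 and Tnfaip3 start further upstream, so that these 3 windows lie within the annotated gene.

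Among the 14 classes, mature DC-like cells led 4 of the 5 subunit genes in both libraries. Nfkb1, Nfkb2, Rel and Relb had their highest level of the 14 classes in mature DC-like cells in library 1 and again in library 2, and in each case both mature DC-like values lay above every value of the 13 other classes. Of the 10 members, 4 were led by mature DC-like cells in both libraries, against 7.41% of the 9362 genes measured. The same 4 members are those that had any 1 leading class in both libraries, a share close to the 39.8% of all genes measured. All 4 are subunits, and with the main processing none of the 5 feedback inhibitors had the same leading class in both.

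**Figure D1:**
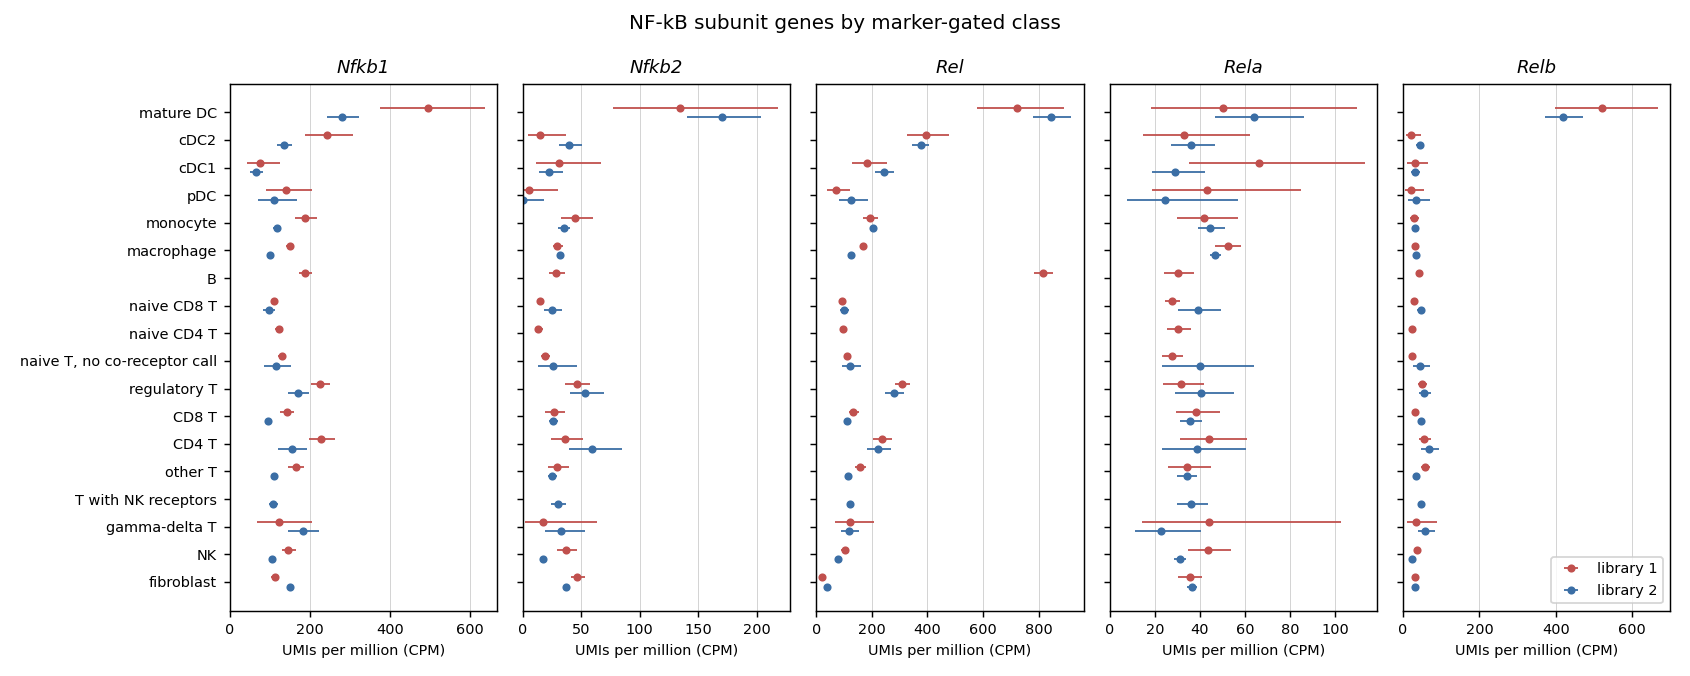
Level of the 5 NF-kB subunit genes in each marker-gated class, in CPM (x axis, linear, its range differs by gene), with library 1 in red above library 2 in blue and 95% Poisson intervals for counting error as bars. Mature DC-like cells stand to the right of all other classes for Relb, at 520 and 420 CPM, while Rela shows no class apart, and a missing point marks a class with under 100000 UMIs in that library.

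Relb (chr7:19606217-19629438, minus strand, mm10) encodes the RelB subunit of the non-canonical pathway, and its level set mature DC-like cells apart from all other classes. Its level was 520 CPM in library 1 (interval 399 to 667), and library 2 gave 420 CPM (373 to 471). The next class in order, CD4 T-like cells, had 56.1 and 67.3 CPM, cDC2-like cells had 21.8 and 43.5 CPM, and cDC1-like cells 30.6 and 31.2 CPM. The other conventional dendritic cells thus had no more Relb than CD4 T-like cells in either library. Against the 13 other classes pooled, the log2 ratio of Relb in mature DC-like cells was 4.01 (3.61 to 4.38) in library 1 and 3.62 (3.44 to 3.79) in library 2.

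The Relb signal was spread over the mature DC-like cells. All 10 cells of library 1 and 48 of the 51 cells of library 2 held a Relb UMI. Per cell, Relb ranged between 201 and 1132 CPM with a median of 404 CPM in library 1, and between 0 and 1319 CPM with a median of 414 CPM in library 2. With each cell thinned to 4000 UMIs, 80.0% and 70.6% of mature DC-like cells still held a Relb UMI, against 12.1% and 12.7% of macrophage-like cells and 19.5% and 29.4% of CD4 T-like cells; unthinned, 39.9% and 40.8% of macrophage-like cells held one. No class that should lack these genes exists among leukocytes, so levels rather than shares are used below.

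Nfkb2 (chr19:46304320-46312385, plus strand), which encodes the p100 precursor of the RelB partner p52, followed Relb at its top. Mature DC-like cells had 134 CPM of it in library 1 (76.8 to 218, from 16 UMIs), library 2 gave 170 CPM (141 to 204), and regulatory T-like cells came next with 45.9 and 53.5 CPM. Both mature DC-like values thus lay above the following class, although the first rests on few UMIs: with each cell thinned to 4000 UMIs, the log2 ratio of mature DC-like cells to the highest other class of library 1 was 0.07, against 1.55 without thinning. Mature DC-like cells exceeded the other classes by 2.46 (1.64 to 3.17) and 2.62 (2.33 to 2.88) on the log2 scale. The lowest class was pDC-like, with 1 UMI in library 1 and 0 in library 2.

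Rel (chr11:23736847-23770970, minus strand) encodes c-Rel, a subunit known for its role in lymphocytes and dendritic cells, and had the clearest order of classes. Mature DC-like cells had 722 and 846 CPM, cDC2-like cells 396 and 375 CPM, regulatory T-like cells 308 and 279 CPM and CD4 T-like cells 237 and 222 CPM. Each of these classes except the last lay above the next in both libraries. NK-like cells were at the low end with 102 and 77.4 CPM. B-like cells, outside that order, had 817 CPM of Rel in library 1 (2255 UMIs in 454 cells), as high as mature DC-like cells, and library 2 held 1 B-like cell.

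Nfkb1 (chr3:135584655-135691547, minus strand), the gene of p105 and p50, was led by mature DC-like cells with 495 CPM (377 to 639) and 281 CPM (242 to 323). Regulatory T-like cells followed with 226 and 170 CPM and CD4 T-like cells with 229 and 155 CPM, and these did not separate from each other or from cDC2-like cells at 244 and 136 CPM. With thinned cells, mature DC-like cells exceeded the highest other class by 0.19 and 0.28 on the log2 scale, against 1.02 and 0.62 without thinning. cDC1-like cells were lowest, with 76.4 and 65.6 CPM, below both values of every other class. The same class of dendritic cells ranked last for Nfkb1, whereas for Rel it had 183 and 244 CPM and ranked 6 in library 1 and 4 in library 2.

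Rela (chr19:5637483-5648130, plus strand), which encodes the p65 subunit of the main canonical dimer, varied least between classes. Its levels lay between 27.6 and 66.2 CPM in library 1 and between 22.6 and 64.0 CPM in library 2. cDC1-like cells were highest in library 1 with 66.2 CPM from 13 UMIs but had 28.9 CPM in library 2, and mature DC-like cells had 50.4 and 64.0 CPM. Of the 13 pairs of neighbouring classes in the order of Rela, 1 was separated in both libraries, so that its order carries little information.

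The make-up of the subunit UMIs showed the same contrast. Relb made up 27.1% of the subunit UMIs of mature DC-like cells in library 1 (exact binomial interval 21.4 to 33.3%) and 23.6% in library 2 (21.2 to 26.1%). It was at most 13.01% in any other class of library 1 and at most 15.04% in library 2. Rel made up 73.8% of the subunit UMIs of B-like cells in library 1 (72.2 to 75.3%), and 8.39% and 13.4% of those of fibroblast-like cells. Nfkb1 was the largest part in fibroblast-like cells, with 45.8% and 50.9%. These are shares of UMIs from transcript ends, which can be set against each other between classes but do not give the proportions of the proteins.

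**Figure D2:**
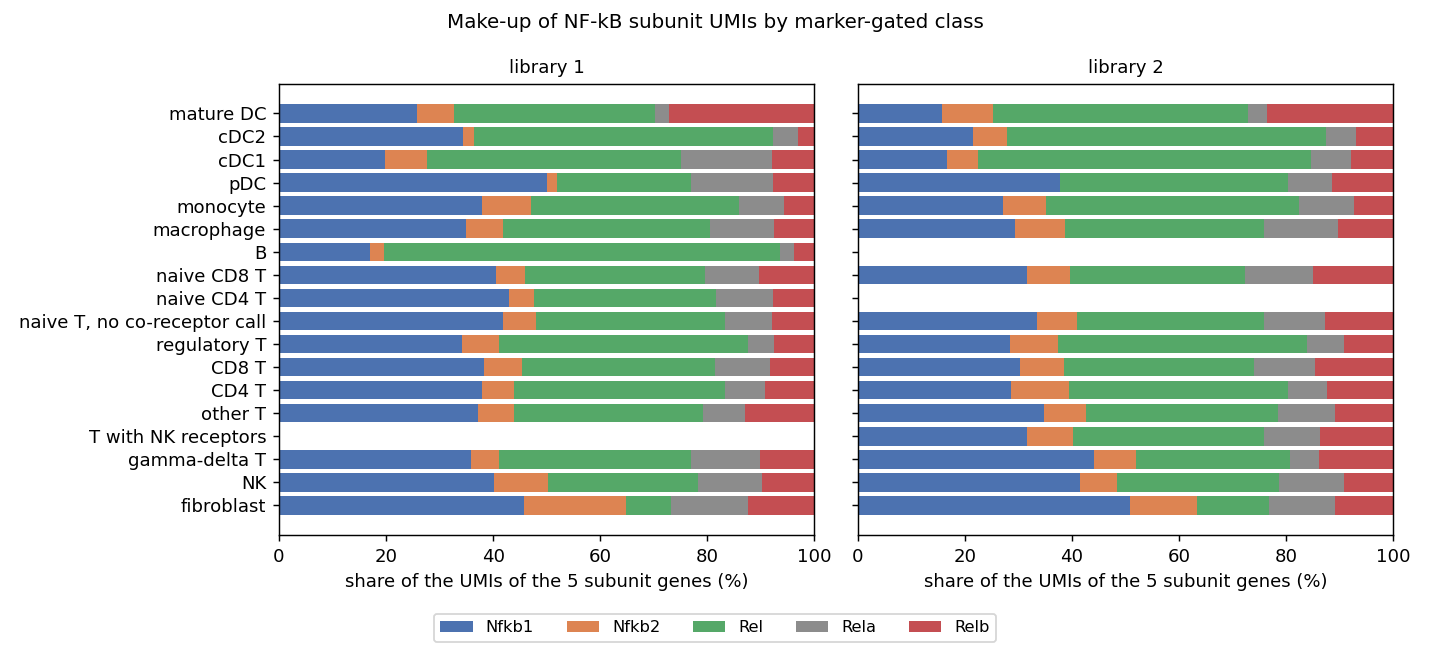
Share of each subunit gene in the summed UMIs of the 5 subunit genes (x axis, percent) for each marker-gated class, with library 1 on the left and library 2 on the right; empty places are classes with under 100000 UMIs in that library. The red Relb segment is widest in mature DC-like cells, at 27.1% and 23.6%, and the green Rel segment is widest in B-like cells, at 73.8%.

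With the main processing, the feedback inhibitors had no leading class that both libraries shared. Under the 12 alternatives given at the end, members with a shared leading class numbered 4 to 7, and only 4 alternatives kept the number at 4. Mature DC-like cells led Nfkbia and Birc3 in library 1 and Nfkbie in library 2, and gamma-delta T-like, cDC2-like, macrophage-like, CD4 T-like and pDC-like cells led in the other cases. Nfkbia (chr12:55489410-55492647, minus strand) encodes IkBa, the inhibitor that canonical NF-kB restores within its own response. Its level was 1309 and 1520 CPM in monocyte-like cells, 1125 and 1611 CPM in gamma-delta T-like cells, 1343 and 996 CPM in mature DC-like cells, 1008 and 1219 CPM in regulatory T-like cells and 1026 and 996 CPM in CD4 T-like cells. These 5 classes overlapped among themselves, and all lay above cDC2-like cells at 618 and 824 CPM. Fibroblast-like cells, outside that order, had 876 and 1353 CPM. NK-like cells (350 and 232 CPM), cDC1-like cells (178 and 322 CPM) and pDC-like cells (199 and 258 CPM) were lowest. In library 1 a single mature DC-like cell held 41.9% of the Nfkbia UMIs of its class.

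Tnfaip3 (chr10:19000910-19015657, minus strand), the gene of the ubiquitin-editing enzyme A20, had its highest ranks in T-like classes. All 7 T-like classes ranked above the NK-like and myeloid classes, with gamma-delta T-like cells at 686 and 367 CPM and CD4 T-like cells at 588 and 367 CPM. Monocyte-like cells had 203 and 114 CPM and macrophage-like cells 155 and 79.1 CPM. cDC1-like cells had 15.3 and 13.4 CPM, from 3 and 12 UMIs, below both values of every other class. The rank of the T-like classes held within each library, whereas their values in library 2 overlapped those of myeloid classes in library 1.

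Nfkbiz (chr16:55811375-55838899, minus strand) encodes IkBz, a nuclear protein that adjusts NF-kB target choice. gamma-delta T-like cells had 273 and 113 CPM, macrophage-like cells 154 and 165 CPM, regulatory T-like cells 162 and 154 CPM and mature DC-like cells 185 and 102 CPM. The first 12 classes were not separated from their neighbours, and cDC1-like cells were again last with 15.3 and 10.0 CPM. A single cell held 45.5% of the Nfkbiz UMIs of mature DC-like cells in library 1.

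Nfkbie (chr17:45555703-45563169, plus strand), the gene of the inhibitor IkBe, was highest in several myeloid classes, but not in all, and in single T-like classes of 1 library. It had 87.2 and 64.3 CPM in cDC2-like cells, 67.1 and 68.3 CPM in mature DC-like cells, 73.5 and 52.2 CPM in monocyte-like cells and 55.7 and 36.9 CPM in macrophage-like cells. gamma-delta T-like cells had 79.1 and 22.6 CPM and CD4 T-like cells 23.9 and 46.9 CPM, so that each was high in 1 library alone, and cDC1-like cells had 25.5 and 28.9 CPM. Naive CD8 T-like cells had 10.7 and 12.2 CPM and were lowest, separated from the class above them in both libraries.

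Birc3 (chr9:7848699-7873186, minus strand) encodes cIAP2, a ubiquitin ligase of the receptor complexes upstream of NF-kB. Mature DC-like cells had 118 and 52.3 CPM and pDC-like cells 59.2 and 63.3 CPM, from 14, 36, 11 and 13 UMIs. None of the 13 neighbouring pairs of classes was separated for Birc3. B-like cells had 108 CPM in library 1.

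**Figure D3:**
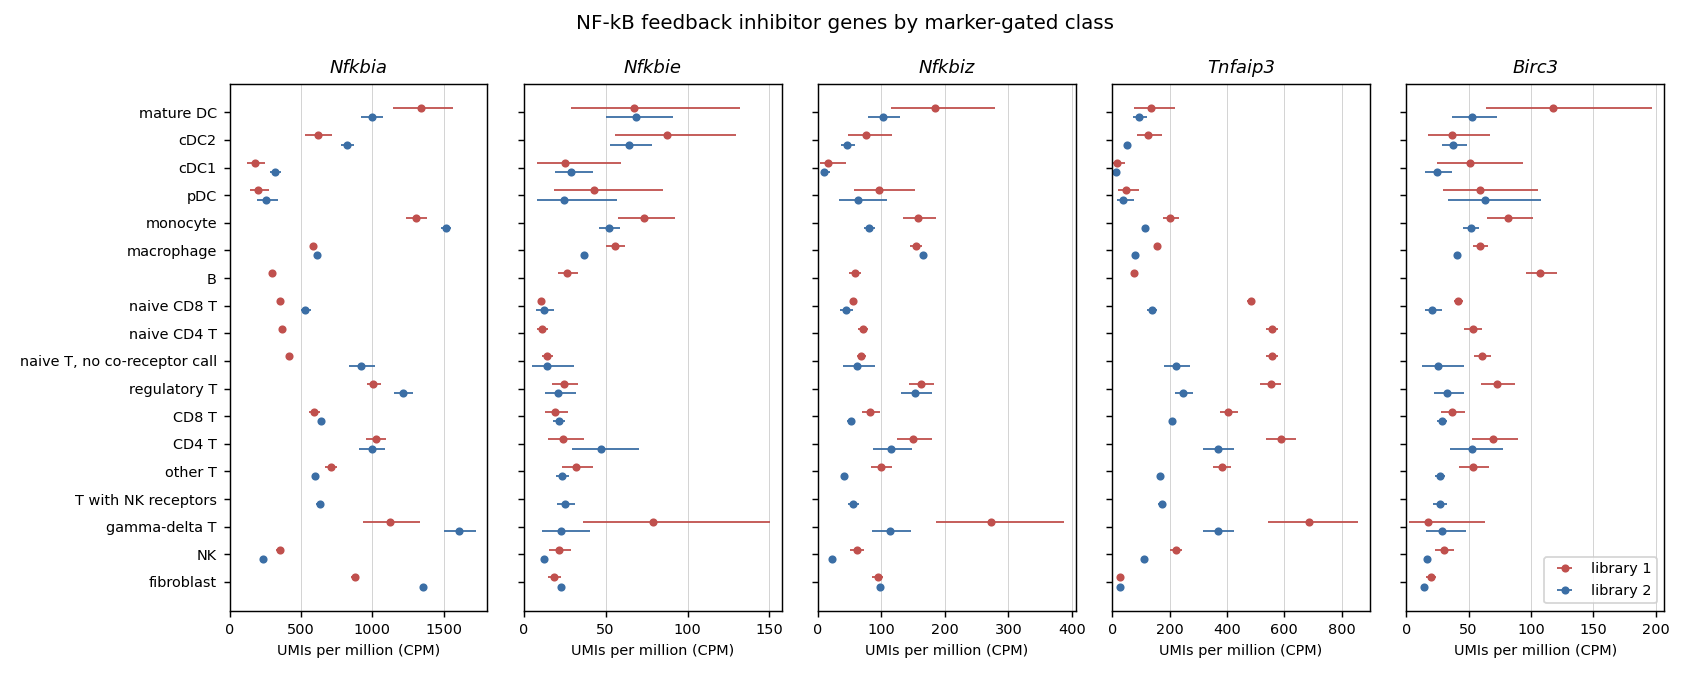
Level of the 5 feedback inhibitor genes in each marker-gated class, in CPM (x axis, linear, its range differs by gene), with library 1 in red above library 2 in blue and 95% Poisson intervals for counting error as bars. Tnfaip3 is higher in T-like classes, between 382 and 686 CPM in library 1, than in cDC1-like cells at 15.3 CPM, while the highest Nfkbia values are shared by 5 leukocyte classes and by fibroblast-like cells, at 876 and 1353 CPM.

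Set against the other classes pooled, few members passed 2-fold in both libraries. A gene was called when its class was at least 2-fold higher or lower in each library with intervals that excluded 1.5-fold. In mature DC-like cells 4 of 10 members were called higher, against 4.31% of the 9558 genes compared, and none lower, where 2.61% of genes were; the members' median log2 ratio was 1.34 and 0.97, beside 0.47 and −0.35 over all genes. Regulatory T-like cells had 2 members called higher, Rel and Nfkbia, where 1.54% of genes were called. Of these, Nfkbia lay at the 2-fold limit, with log2 ratios of 1.01 and 1.03. cDC2-like cells had Rel and Nfkbie called higher (1.88% of genes) and Tnfaip3 called lower (2.34%). Monocyte-like cells had Nfkbia called higher (4.74%), and gamma-delta T-like cells likewise (0.931%). cDC1-like cells had Nfkbiz and Tnfaip3 called lower (3.53%), pDC-like cells Nfkbia (2.76%), and naive CD8 T-like cells Nfkbie and Nfkbiz (10.9%). In macrophage-like cells no member was called, although 14.8% of genes were called higher and 8.29% lower. Nfkbiz fell just short there in library 1, with log2 ratios of 0.97 (0.85 to 1.08) and 1.89 (1.82 to 1.97). In NK-like cells no member was called either, where 2.86% of genes were called higher and 10% lower. The pools differ between the libraries: the naive T-like classes of the 14 held 49.9% of their UMIs in library 1 and 2.83% in library 2, and macrophage-like cells 19.9% and 43.7%.

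Genes around these members in the pathway were read from 3 further lists, of 26 upstream genes, 15 other inhibitors and 30 reported targets. In mature DC-like cells 3 of 25 upstream genes compared were called higher and none lower, where 4.31% and 2.61% of all genes were. Traf1, an adaptor of TNF receptors, had 1746 CPM in mature DC-like cells and 106 CPM in the other classes of library 1, and 1057 and 89.0 CPM in library 2. Cd40, a receptor that feeds the non-canonical pathway, had 243 and 18.4 CPM in library 1 and 201 and 25.7 CPM in library 2.

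Of the 15 other inhibitors, 3 were called higher in mature DC-like cells and none lower. Tnip3, an A20-binding protein, had 428 CPM in mature DC-like cells and 14.9 CPM in the other classes of library 1, and 190 and 13.9 CPM in library 2. Birc2, which encodes cIAP1, had 613 and 111 CPM in library 1 and 420 and 46.8 CPM in library 2. Of 25 targets compared, 10 were called higher and none lower, where 4.31% and 2.61% of all genes were. The chemokine gene Ccl22 had the largest ratio of them, with 2392 CPM in mature DC-like cells and 1.95 CPM in the other classes of library 1, and 1257 and 1.58 CPM in library 2, while the chemokine gene Cxcl2 had 629 and 479 CPM in library 1 and 144 and 2036 CPM in library 2.

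In monocyte-like cells, where Nfkbia was high, 10 of 25 targets were called higher and 2 lower, where 4.74% and 8.91% of all genes were. Of these 10 targets, 3 (Cd80, Cd86 and Gadd45b) were also among the 10 called higher in mature DC-like cells. Macrophage-like cells, where no member was called, had 13 of 25 targets called higher and none lower, where 14.8% and 8.29% of all genes were; 4 of the 13 were among those of mature DC-like cells and 6 among those of monocyte-like cells. Ier3, an early response gene, had 1259 CPM in monocyte-like cells and 122 CPM in the other classes of library 1, and 1679 and 362 CPM in library 2, and Ptgs2, the gene of cyclooxygenase 2, had 160 and 18.2 CPM in library 1 and 180 and 32.5 CPM in library 2. Ccl22 had 0 UMIs in monocyte-like cells of library 1 and 1.01 CPM in library 2. Among the upstream genes the TNF receptor gene Tnfrsf1a had 180 and 33.1 CPM in library 1 and 187 and 62.5 CPM in library 2.

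Between the libraries, Tnfaip3, Nfkb1, Nfkbiz and Birc3 had a higher level in library 1 in most classes. Tnfaip3 was higher in library 1 in all 14 classes, and its interval excluded equal levels in 11. Nfkb1 and Nfkbiz were higher in library 1 in 13 of 14 classes each and Birc3 in 11. Of the 3401 genes with at least 10 UMIs in each of the 14 classes, summed over both libraries, 6.67% were higher in library 1 in at least 13 classes and 12.8% were higher in library 2 in at least 13. The median log2 ratio of Tnfaip3, library 1 over library 2, was 0.96, above that of 99.3% of these genes. Relb, Nfkbia and Nfkb2 went the other way more often. Relb was higher in library 2 in 11 of 14 classes, with intervals that excluded equal levels in 3 of them. It was higher in library 1 in 3 classes, with such intervals in 2, other T-like and NK-like cells. Nfkb2 had a log2 ratio below 0 in 9 classes, with such intervals in 2, and above 0 in 5 classes, with such an interval in 1. These 9 include pDC-like cells, with 1 UMI in library 1 and 0 in library 2. There the ratio is below 0 only through the floor of 3 UMIs set for a count of 0. Nfkbia was higher in library 2 in 10 of 14 classes, with intervals that excluded equal levels in 8 of them and in 3 of the 4 where library 1 was higher.

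**Figure D4:**
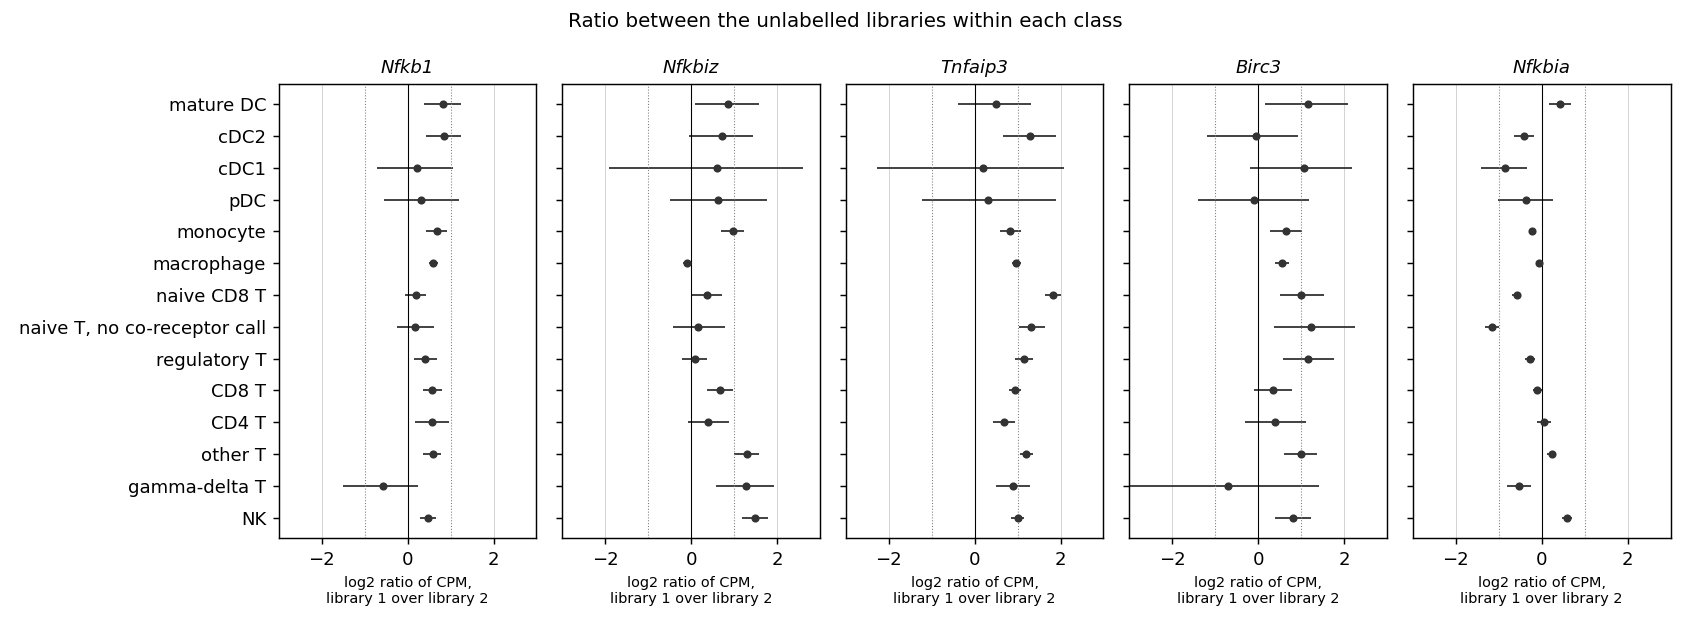
Log2 ratio of the level in library 1 over that in library 2 (x axis; 0 is equal, dotted lines mark 2-fold) within each of 14 marker-gated classes, for 5 members, with 95% intervals for counting error as bars. All points of Tnfaip3 lie right of 0, between 0.19 and 1.82, while those of Nfkbia lie on both sides, between −1.15 and 0.60.

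For a comparison gene by gene, 4 classes held at least 100 cells in each library. In NK-like cells 3 of 10 members were at least 2-fold higher in library 1, against 2.98% of the 7957 genes compared, and none was higher in library 2 (1.12%). Nfkbiz had 60.8 and 21.7 CPM, a log2 ratio of 1.48 (1.17 to 1.78), and Nfkb2 had 37.0 and 17.4 CPM, a ratio of 1.09 (0.70 to 1.46). Tnfaip3 had 222 and 110 CPM, a ratio of 1.01 (0.85 to 1.16) that lies at the 2-fold limit. All 10 members had a higher level in library 1 in NK-like cells, where 60.9% of all genes compared did. Their median log2 ratio was 0.69 beside 0.12 over all genes.

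In other T-like cells 2 of 10 members were at least 2-fold higher in library 1 (2.8% of 6206 genes) and none in library 2 (1.97%). Nfkbiz had 99.2 and 40.2 CPM, a log2 ratio of 1.30 (1.01 to 1.59), and Tnfaip3 had 382 and 166 CPM, a ratio of 1.20 (1.06 to 1.35). Both calls were lost with Leiden clusters in place of the gate, at 0.62 for Nfkbiz and 0.91 for Tnfaip3, and that of Tnfaip3 with only cells of at least 10000 UMIs, at 0.67. Again all 10 members had a higher level in library 1, where 47.1% of all genes compared did. Their median was 0.52 beside −0.04 over all genes. In CD8 T-like cells no member passed 2-fold in library 1 (2.27% of 6118 genes) or in library 2 (7.11%), and Tnfaip3 had 405 and 210 CPM, a ratio of 0.95 (0.81 to 1.08). In macrophage-like cells none passed in library 1 (2.43% of 9801 genes) or in library 2 (1.32%); Tnfaip3 had 155 and 79.1 CPM, a ratio of 0.97 (0.86 to 1.08), and Nfkbiz 154 and 165 CPM, a ratio of −0.10 (−0.20 to 0.00). Counted over these classes, 5 member ratios passed 2-fold.

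Other measures also differed between the libraries. Of 12 genes known to respond to tissue handling (Fos, Jun, Hspa1a and others), 8 in NK-like and 9 in other T-like cells were at least 2-fold higher in library 1, with median log2 ratios of 1.15 and 1.13, against 2 in macrophage-like and 0 in CD8 T-like cells, with medians of 0.63 and 0.36. Of the 12, 1 was at least 2-fold higher in library 2 in CD8 T-like cells, and none in NK-like, other T-like or macrophage-like cells. The summed level of the 12 genes was 4978 and 2255 CPM in NK-like cells and 7396 and 3715 CPM in other T-like cells. It was 4820 and 3945 CPM in CD8 T-like cells and 8740 and 6281 CPM in macrophage-like cells. Gm42418, which overlaps ribosomal RNA, had 18068 and 5095 CPM in NK-like cells, and 14.5% and 31.1% of NK-like cells were cycling by their markers. Both measures also differed in CD8 T-like cells, where no member passed 2-fold: Gm42418 had 25355 and 7715 CPM, and 7.33% and 39.0% of cells were cycling. In other T-like cells Gm42418 had 24992 and 7226 CPM and 10.1% and 34.2% of cells were cycling, and in macrophage-like cells the values were 34307 and 13156 CPM and 12.4% and 16.6%. The part of these differences in the member ratios was not tested.

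The largest Tnfaip3 ratio was that of naive CD8 T-like cells, which had 483 CPM in library 1 (470 to 496) and, in library 2, 137 CPM (120 to 156), a log2 ratio of 1.82 (1.63 to 2.01). Per cell, the median was 420 CPM over 1287 cells of library 1 and 137 CPM over 80 cells of library 2, so that the difference was not carried by a few cells. The gate held unlike cells in the libraries: the summed level of the naive markers was 4590 and 1221 CPM, and 0.777% and 50% of these cells were cycling. In regulatory T-like cells, where 13.4% and 33.9% were cycling, Tnfaip3 had 552 and 249 CPM, a ratio of 1.15 (0.95 to 1.36).

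Of the wider lists, upstream genes and other inhibitors were mostly on the side of the members in NK-like cells. There 19 of 22 upstream genes compared had a higher level in library 1, with a median log2 ratio of 0.43. The same held for 11 of 13 other inhibitors, with a median of 0.38. Over all genes the median was 0.12, and 60.9% were higher in library 1. None of the 22 upstream genes passed 2-fold. Of the 13 other inhibitors 2 were at least 2-fold higher in library 1, where 2.98% of all genes were. Nfkbid, which encodes the nuclear inhibitor IkBNS, had 40.5 and 13.3 CPM, a log2 ratio of 1.60 (1.22 to 1.98). The same gene had a ratio of 1.67 (1.35 to 1.98) in other T-like cells and 1.34 (1.04 to 1.64) in CD8 T-like cells. Of 15 targets compared in NK-like cells, 4 were at least 2-fold higher in library 1 and 4 in library 2, where 2.98% and 1.12% of all genes were. The chemokine gene Ccl3 had 101 and 21.7 CPM, and Cxcl2 had 2.53 and 91.0 CPM, a gene whose level in monocyte-like cells was 3055 and 7110 CPM. In macrophage-like cells Malt1, a signalling protease downstream of antigen and lectin receptors, had 109 and 35.3 CPM, a ratio of 1.63 (1.49 to 1.77), and Tnip3 had 52.7 and 19.98 CPM, a ratio of 1.40 (1.20 to 1.59).

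Among cells of one class, Nfkbia went with Tnfaip3. Across cells thinned to 4000 UMIs each, Pearson's r of their UMIs was 0.64 and 0.27 in NK-like cells (124 and 916 cells), 0.50 and 0.37 in other T-like cells (169 and 550), 0.46 and 0.29 in CD8 T-like cells (191 and 492), 0.42 and 0.18 in monocyte-like cells (91 and 590) and 0.38 and 0.24 in macrophage-like cells (346 and 1865). Nfkbia also went with Nfkbiz in other T-like cells, at 0.63 and 0.44. Each of these 5 classes showed the positive sign in both libraries. Nfkbia went with the summed handling genes as well, at 0.51 and 0.46 in NK-like and 0.30 and 0.55 in other T-like cells. Within these NK-like and other T-like cells the 5 subunits lay between −0.11 (Nfkb2, library 1) and 0.18 (Nfkb1, library 2) with that sum, both in other T-like cells. In CD8 T-like cells Nfkbia had 0.33 and 0.43, and the highest subunit, Rel, had 0.11 and 0.14. The contrast was smaller in macrophage-like and monocyte-like cells. In macrophage-like cells of library 1 Nfkb1 had 0.23 and Nfkbia 0.32, and in monocyte-like cells of library 2 Nfkbia had 0.09. The subunits have fewer UMIs than Nfkbia, and few UMIs limit r in thinned cells. Cells of a library share their preparation, so these values are descriptions.

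Finally, members were compared by their pattern over the 14 classes in both libraries, 28 points that share libraries and depth. Pearson's r of log2(CPM + 1) between members was highest for Rel with Relb at 0.71 and Nfkb1 with Relb at 0.67, and lowest for Rela with Tnfaip3 at −0.21. Of 5510 other genes with at least 50 CPM in 1 of these points, the 3 most like Relb were Mreg (0.92), Tmtc2 (0.92) and Nudt17 (0.91), of which Nudt17 is a marker of the mature DC gate. For Nfkb2 they were Bcl2a1b (0.90), Ssh1 and Aftph, for Nfkb1 Thap2 (0.83), Cflar and Cd274, for Rel Got1 (0.87), Etv3 and Jak2, and for Rela Sel1l (0.76), Mob1a and Plekhm2. Among the inhibitors, the genes most like Nfkbia were Smpdl3a (0.88), Ifrd1 and Mxd1, most like Nfkbie Map2k1 (0.85), Etv6 and Zfp36, most like Nfkbiz Zc3h12a (0.83), Npepps and Glg1, most like Tnfaip3 Cdk17 (0.90), Tecpr1 and Ankrd11, and most like Birc3 Ranbp2 (0.81), Poldip3 and Ddx17. Zc3h12a, the gene of the RNase regnase-1, stands in the list of other inhibitors, and Bcl2a1b in that of targets.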

How the data were processed

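The deposited file holds raw UMI counts, not normalized, of 31053 genes in 12514 barcodes of both libraries. The authors ran Cell Ranger, version 3.1.0 per the file headers; the genome was mm10, per the submitters' processing notes. For the annotation, the calling of cells and the strand setting, the sources used here give nothing, so overlapping genes are uncertain.

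Cells needed at least 200 genes, 500 UMIs and at most 10% mitochondrial UMIs; 79 barcodes of library 1 and 96 of library 2 were left out. Scrublet's automatic threshold marked 0 barcodes, so the 5% with the highest doublet scores (266 and 360) were removed, which left 4978 and 6740 cells. Cells were gated by 25 lists of 134 marker genes, with limits set on the marker distributions. The members, lists and gates were chosen with earlier results of these data known. CPM are UMIs summed over a class, with exact Poisson intervals. Ratios have exact conditional binomial intervals, and a count of 0 was set to a floor of 3 UMIs. Between the libraries, genes with at least 100 UMIs in a class were compared. The leading class was found for genes of at least 10 CPM. Single members are named in full; from the wider lists the genes with the highest and lowest values are named, apart from a result that is not reported here. The rule for ratios past 2-fold was tested on simulated counts of macrophage-like cells before use. Free RNA was estimated per class from markers of other lineages at 0.764 to 9.37% of UMIs. Of 12 alternatives, 10 were planned and 2 were added after seeing the data. Shares of all genes leave out mitochondrial, ribosomal protein and sex-check genes. Python 3.11.15, numpy 2.4.6, scipy 1.17.1 and scanpy 1.11.5 were used. Sequences are from RefSeq and positions from GENCODE M21.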

Additional observations from a re-analysis of the deposited data

How the results depend on the processing

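The number of members led by mature DC-like cells in both libraries was 4 or 5 under all 12 alternatives, although with cells thinned to 4000 UMIs their log2 ratio to the highest other class of library 1 was 0.07 for Nfkb2 and 0.19 for Nfkb1. Members with the same leading class numbered 4 to 7, and were 7 both with cells thinned to 4000 UMIs and with the mean of per-cell CPM. Member ratios past 2-fold between the libraries numbered 3 to 8. With UMI totals that leave out mitochondrial, ribosomal and Gm42418 UMIs, 8 passed, among them 1 in macrophage-like and 1 in CD8 T-like cells; this scaling raises every log2 ratio in CD8 T-like cells by 0.23 and by under 0.1 in the other 3 classes. With only cells of at least 10000 UMIs, 3 passed, and 1 of them in other T-like cells. Named Leiden clusters gave 2 in CD8 T-like and 0 in other T-like cells, and stricter gates 1 in CD8 T-like cells. In macrophage-like cells 1 passed with the mean of per-cell CPM, with a 5% mitochondrial limit, and without cycling cells, the last an alternative chosen after seeing the data. The log2 ratio of Tnfaip3 between libraries lay at 0.88 to 1.04 in macrophage-like, 0.74 to 1.18 in CD8 T-like, 0.67 to 1.44 in other T-like and 0.72 to 1.22 in NK-like cells, so its call in NK-like cells is lost under some of them. Of 720 single-gene values, 95 moved by more than their counting interval and none changed sign once called. The causes were not tested. Leiden clusters lacked cDC1-like, naive T-like without a co-receptor call, CD4 T-like and gamma-delta T-like classes, and the 10000-UMI limit lacked pDC-like cells. No paired analysis was possible because each group has 1 library. Depth limits the small classes of library 1 most: 10 mature DC-like cells carried 119147 UMIs, 10 gamma-delta T-like cells 113750 and 7 cDC1-like cells 196391.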
